A study of Mus musculus with 6 samples.

Results

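The lysosomal proteases called cathepsins and the cystatins that inhibit them were examined in bone marrow-derived macrophages. The 10 genes were the cysteine cathepsins Ctsb, Ctsc, Ctsh, Ctsk, Ctsl and Ctsz, the aspartic cathepsin Ctsd, and the cystatins Cst3, Cst7 and Cstb. They were found by symbol among the 46095 genes of the count table, and all 10 matched a row. The list had been selected on measured values of the same libraries, with Ctss left out of it, so the differences between genotypes in these 10 genes are given as a description. Where one of them is said to pass a threshold, this states where it fell in the fit over all genes and is not a test of the gene.

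Messenger RNA was sequenced from macrophages of C57BL/6 mice aged 56 days. Marrow cells were cultured for 7 days with 20 ng/ml of M-CSF, under which they become macrophages. They then received 20 ng/ml of IFN-γ with 100 ng/ml of LPS for 24 h, which yields M1-type macrophages. The 3 Cd226-/- libraries came from mice lacking Cd226, the gene of the adhesion receptor CD226, and the 3 WT libraries from wild-type mice. Both genotypes received the same culture and stimulus, and no unstimulated macrophages are analysed here. The labels give neither the exons deleted nor whether replicates came from separate animals or cultures, and the p-values given here thus rest on a spread between samples that may be purely technical.

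Cysteine cathepsins and the aspartic cathepsin D are made as inactive precursors, carried to endosomes and lysosomes mainly by mannose 6-phosphate receptors, and activated at acid pH. In macrophages they degrade engulfed and endogenous proteins and prepare antigens for MHC class II. Cystatins block cysteine cathepsins by filling the active-site cleft and do not inhibit cathepsin D. Cystatin C (Cst3) is secreted, stefin B (Cstb) acts mostly in the cytosol, and cystatin F (Cst7) is made by immune cells and can enter the lysosome, where cathepsin C is a main target.

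Total counts per library were 16925955 to 18867799 in Cd226-/- macrophages and 16838527 to 21658061 in WT macrophages. Levels are given as CPM, a gene's counts relative to the TMM-scaled total of its library, and 1 count was worth 0.0452 to 0.0600 CPM. The targeted gene Cd226 had 11, 10 and 8 counts in the Cd226-/- libraries and 5, 17 and 23 counts in the WT libraries, too few to check the labels. Summed macrophage markers reached 19530 to 20303 CPM in Cd226-/- and 18262 to 20227 CPM in WT libraries. Cd226-/- replicates 2 and 3 stood apart from the other 4 libraries by hepatocyte transcripts, with summed markers of 23.8 and 26.1 CPM, against 0.165 CPM in Cd226-/- replicate 1 and at most 0.181 CPM in WT libraries. The fold changes of the 10 genes are therefore also given with Cd226-/- replicates 2 and 3 left out. In bulk RNA, fewer cells of a type and less RNA per cell cannot be told apart.

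All 3 cystatins and 4 of the 6 cysteine cathepsins were higher in Cd226-/- macrophages, and the aspartic cathepsin Ctsd was lower. These 8 genes had an adjusted p under 0.05 in the fit over all 13215 genes tested, in which 30.9% of genes passed that threshold in either direction, 16.1% higher and 14.8% lower in Cd226-/-. Scaling by library size alone gave 1773 genes higher and 2764 lower, against 2130 higher and 1956 lower with TMM, and 7 of the 10 genes higher and 2 lower. The 3 Cd226-/- values lay wholly above or wholly below the 3 WT values for 9 of the 10 genes, as they did for 44.3% of all genes tested. The median log2 fold change of the 10 genes was 0.25, beside -0.0045 for all genes tested. Their median absolute log2 fold change was 0.27, beside 0.20 for all. Because these values chose the genes, nothing further is read from the counts.

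**Figure D1:**
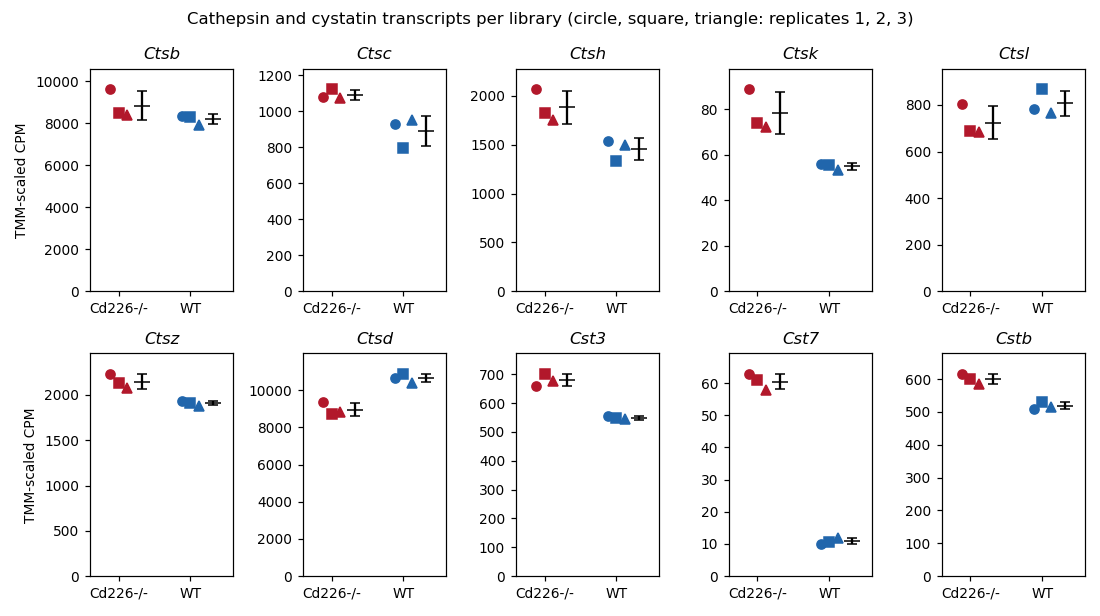
TMM-scaled CPM of the 10 genes in each of the 6 libraries, Cd226-/- in red and WT in blue, with a circle, square and triangle for replicates 1, 2 and 3 and a black mark with a bar for the mean and SD (n = 3 each). The genotypes are widest apart in Cst7, at 57.9 to 62.7 CPM in Cd226-/- and 10.03 to 11.8 CPM in WT. With this scaling they overlap in Ctsl alone, and by library size alone in Ctsb instead.

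Cst7 had by far the widest separation among the 10 genes. Its level was 62.7, 60.8 and 57.9 CPM in the Cd226-/- libraries, against 10.03, 10.6 and 11.8 CPM in the WT libraries. The 3 libraries of each genotype lay close together and far from those of the other. The Cd226-/- level was 5.57-fold the WT level (log2 fold change 2.48 ± 0.083, SE), an absolute change larger than that of 99.8% of genes tested. The counts behind it were 1138, 1014 and 1063 in Cd226-/- and 183, 182 and 261 in WT libraries, and 182 was the smallest count of any of the 10 genes. Lymphocytes also express Cst7. Summed T and NK cell markers were 7.01 to 8.55 CPM in Cd226-/- and 7.13 to 8.69 CPM in WT, with Trac at 0 in every library and 0 of 6 tested markers past the threshold. B cell markers were 30.0 to 39.3 CPM in Cd226-/- and 12.2 to 15.1 CPM in WT, with Ighm at 0 and 5 of 5 tested markers higher. Dendritic cell markers were 101 to 111 CPM in Cd226-/- and 68.7 to 83.2 CPM in WT, with 3 of 5 tested markers higher. The higher ones were Ccr7 (63.6 CPM in Cd226-/-, 43.4 CPM in WT), Itgax (32.6 and 25.1 CPM) and Batf3 (3.49 and 1.84 CPM). Zbtb46 (4.38 and 4.28 CPM) and Flt3 (1.91 and 1.17 CPM) did not pass. Summed neutrophil markers were 245 to 249 CPM in Cd226-/- and 170 to 178 CPM in WT, with 1 of 3 tested markers higher. That marker was Csf3r, which made up most of the sum, at 187 CPM in Cd226-/- and 117 CPM in WT. S100a8 (58.8 CPM in Cd226-/-, 55.2 CPM in WT) and Camp (1.02 and 0.50 CPM) did not pass. S100a9 and Ly6g averaged 0.148 and 0.0765 CPM in Cd226-/- and 0.106 and 0.127 CPM in WT. The part of B cells, dendritic cells or neutrophils in the Cst7 difference was not tested.

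The other cystatins differed far less. Cst3, the secreted cystatin C, had 659, 702 and 677 CPM in Cd226-/- libraries and 556, 547 and 543 CPM in WT libraries. Every Cd226-/- library was above every WT library, and the Cd226-/- level was 1.24-fold the WT level (log2 fold change 0.31 ± 0.048, SE). Cstb, the cytosolic stefin B, had 616, 599 and 586 CPM in Cd226-/- and 510, 530 and 515 CPM in WT macrophages. The genotypes again did not overlap, at 1.16-fold the WT level (log2 fold change 0.21 ± 0.048, SE).

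Among the cysteine cathepsins, Ctsk differed most. Ctsk encodes the collagen-degrading cathepsin of osteoclasts, and its level was 89.0, 73.7 and 72.2 CPM in Cd226-/- libraries and 55.7, 55.5 and 53.2 CPM in WT libraries. All Cd226-/- libraries were higher, replicate 1 most of all, while the WT libraries were nearly level. The Cd226-/- level was 1.43-fold the WT level (log2 fold change 0.52 ± 0.071, SE). With Cd226-/- represented by replicate 1 alone the log2 fold change was 0.71, and without that replicate it was 0.41. Summed osteoclast markers were 342, 306 and 309 CPM in Cd226-/- and 269, 299 and 246 CPM in WT, also highest in Cd226-/- replicate 1. Oscar was at 0 throughout, and 2 of 7 tested markers were higher and 1 lower. The higher ones were Acp5, which made up 207 of the 342 CPM in Cd226-/- replicate 1, and Dcstamp. Dcstamp was lowest in that replicate, at 3.86, 4.68 and 5.83 CPM in the Cd226-/- libraries. Among Cd226-/- libraries, Mmp9, Itgb3 and Tnfrsf11a were also highest in replicate 1, and Nfatc1 and Calcr were lowest there. The summed stromal markers, of cells that also make Ctsk, were 761 to 793 CPM in Cd226-/- and 494 to 574 CPM in WT, with 4 of 5 tested markers higher. The part of osteoclast-like or stromal cells in the Ctsk difference was not tested.

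Ctsh, Ctsc and Ctsz act mainly as exopeptidases. Ctsh, an aminopeptidase, had 2071, 1822 and 1749 CPM in Cd226-/- libraries and 1534, 1330 and 1499 CPM in WT libraries. All Cd226-/- values were above all WT values (1.29-fold, log2 fold change 0.37 ± 0.066, SE), with replicate 1 the highest. Ctsc, the dipeptidyl peptidase that activates serine proteases of immune granules, had 1078, 1125 and 1075 CPM in Cd226-/- and 928, 796 and 952 CPM in WT macrophages. The Cd226-/- libraries lay close together and above the WT libraries, of which replicate 2 was the lowest (1.22-fold, log2 fold change 0.29 ± 0.060, SE). Ctsz, a carboxypeptidase also called cathepsin X, had 2234, 2130 and 2079 CPM in Cd226-/- and 1928, 1910 and 1883 CPM in WT macrophages. The genotypes did not overlap (1.13-fold, log2 fold change 0.17 ± 0.050, SE). Ctsz fell short of the threshold without WT replicate 1 (log2 fold change 0.18) or WT replicate 3 (0.16).

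Ctsb and Ctsl were the 2 genes of the list that did not pass the threshold. Ctsb, both an endopeptidase and a carboxypeptidase, had 9641, 8482 and 8393 CPM in Cd226-/- libraries and 8351, 8291 and 7929 CPM in WT libraries. Its values did not overlap with TMM scaling but did so by library size alone. With TMM the lowest Cd226-/- value lay just above the highest WT value, and replicate 1 stood well above the other Cd226-/- libraries. Its log2 fold change was 0.11 ± 0.058 (SE), against 0.24 with Cd226-/- represented by replicate 1 alone, where it passed the threshold, 0.042 without that replicate and 0.056 by library size alone. Ctsl, a broad endopeptidase, had 804, 686 and 682 CPM in Cd226-/- and 782, 869 and 767 CPM in WT macrophages. Cd226-/- replicate 1 lay among the WT libraries, and the other 2 Cd226-/- libraries lay below them. By library size alone the genotypes did not overlap in Ctsl. Its log2 fold change was -0.15 ± 0.065 (SE). That value was 0.0029 with Cd226-/- represented by replicate 1 alone, and it passed the threshold at -0.24 without that replicate, at -0.21 by library size alone and at -0.17 with no filter on low counts.

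The aspartic protease gene Ctsd was lower in every Cd226-/- library. It had 9344, 8702 and 8846 CPM in Cd226-/- macrophages and 10667, 10885 and 10414 CPM in WT macrophages. Replicate 1 was again the highest Cd226-/- library, and the genotypes did not overlap. The Cd226-/- level was 0.841 of the WT level (log2 fold change -0.25 ± 0.053, SE). Without WT or Cd226-/- libraries in turn the log2 fold change stayed between -0.28 and -0.23.

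**Figure D2:**
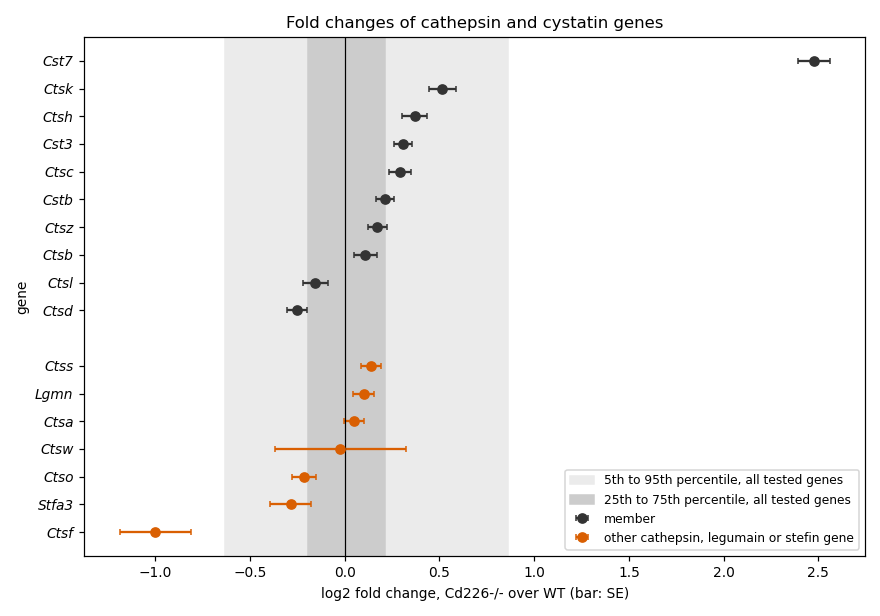
Log2 fold change of Cd226-/- over WT with its SE for the 10 genes (dark) and for the 7 other cathepsin, legumain and stefin genes tested (orange), over bands that span the 25th to 75th and the 5th to 95th percentile of all tested genes. Cst7 at 2.48 and Ctsf at -0.998 lie outside the wider band, which runs from -0.63 to 0.86.

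Cd226-/- replicate 1 was the highest of its genotype for 8 of the 10 genes, all but Cst3 and Ctsc. The same library was the highest for 38.6% of all genes tested. It exceeded the mean of its genotype by 0.19 for Ctsk, 0.16 for Ctsl, 0.14 for Ctsh and 0.13 for Ctsb on the log2 scale. Among WT libraries, replicate 2 had the lowest Ctsc and Ctsh and the highest Ctsl. The SD of log2 CPM within Cd226-/- ran between 0.037 for Cstb and 0.17 for Ctsk. Within WT it ran between 0.017 for Cst3 and 0.14 for Ctsc. The median SD of the 10 genes was 0.056 in Cd226-/- and 0.039 in WT, beside 0.11 and 0.10 for all genes tested, which include many of lower count. With Cd226-/- represented by replicate 1 alone, the log2 fold change was 2.54 for Cst7, 0.52 for Ctsh, 0.28 for Ctsc, 0.27 for Cst3, 0.26 for Cstb, 0.23 for Ctsz and -0.18 for Ctsd, beside the values given above for Ctsk, Ctsb and Ctsl. The direction was that of all 6 libraries for every one of the 10 genes but Ctsl.

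Levels of different genes were set side by side after division by the length of each principal transcript. Per kilobase, Ctsd was the most abundant of the 10 transcripts in both genotypes, at 4214 ± 158 CPM per kb in Cd226-/- and 5010 ± 111 CPM per kb in WT macrophages (SD, n = 3 each). Ctsb came next at 1864 ± 147 in Cd226-/- and 1727 ± 48.1 CPM per kb in WT. At the other end were Cst7, at 61.3 ± 2.46 in Cd226-/- and 10.98 ± 0.917 CPM per kb in WT, and Ctsk, at 51.8 ± 6.12 in Cd226-/- and 36.3 ± 0.911 CPM per kb in WT. The order in Cd226-/- macrophages was Ctsd, Ctsb, Ctsz, Ctsh, Cstb, Cst3, Ctsc, Ctsl, Cst7 and Ctsk. In WT macrophages Ctsl stood above Ctsc and Ctsk above Cst7. The ranges of neighbours over the 3 libraries of a genotype did not overlap, with a pair of exceptions. Cst7 and Ctsk touched in Cd226-/-, although Cst7 was the higher within each library, and Ctsh and Cstb overlapped in WT, where Cstb was the higher in replicate 2. With coding length in place of transcript length, 6 of the 10 genes kept their rank in Cd226-/-, and Ctsb (8691 CPM per kb) came before Ctsd (7288 CPM per kb).

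**Figure D3:**
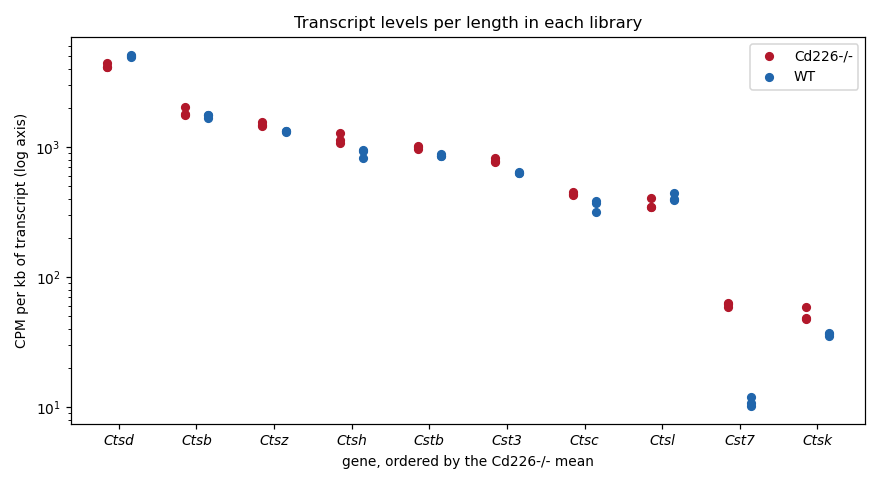
CPM per kb of principal transcript on a log axis, with 1 point per library, Cd226-/- in red left of WT in blue, and genes ordered by their Cd226-/- mean. Ctsd and Ctsb are the 2 highest in every library, and Cst7 is below Ctsk in WT libraries but not in Cd226-/- libraries.

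The balance of inhibitor to protease transcripts among the listed genes was computed in each library from the levels per kilobase. Cathepsins outside the list were not included. Among them was the cysteine cathepsin Ctss, which averaged 5811 CPM in Cd226-/- and 5279 CPM in WT macrophages. The ratios therefore describe the listed genes and not all protease transcripts of these macrophages. The 3 cystatins summed to 1851, 1872 and 1817 CPM per kb in Cd226-/- libraries and 1503, 1527 and 1497 CPM per kb in WT libraries. The 7 cathepsins summed to 10156, 9333 and 9278 CPM per kb in Cd226-/- and 9869, 9811 and 9607 CPM per kb in WT libraries, with overlap. The ratio of cystatins to cathepsins was 0.182, 0.201 and 0.196 in Cd226-/- and 0.152, 0.156 and 0.156 in WT libraries, higher in every Cd226-/- library. That separation included Ctsd, which cystatins do not inhibit and which was lower in Cd226-/-. Over the 6 cysteine cathepsins alone, a ratio added after the data were seen, it was 0.321, 0.357 and 0.355 in Cd226-/- and 0.310, 0.325 and 0.318 in WT libraries, and Cd226-/- replicate 1 lay below WT replicate 2. With coding lengths this second ratio was 0.243, 0.274 and 0.271 in Cd226-/- and 0.231, 0.240 and 0.239 in WT libraries, without overlap. The ratio over all 7 cathepsins was 0.176, 0.194 and 0.190 in Cd226-/- and 0.151, 0.155 and 0.155 in WT libraries when Cst7 was left out. Cst7 made up 3.44, 3.29 and 3.23% of the cystatin sum in Cd226-/- and 0.677, 0.706 and 0.800% in WT libraries, so that Cst3 and Cstb formed nearly all of the cystatin transcripts in both genotypes.

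Ratios between single members were also taken from the levels per kilobase. The ratio of Ctsd to Ctsb was 2.16, 2.29 and 2.35 in Cd226-/- and 2.85, 2.93 and 2.93 in WT libraries. The ratio of Ctsk to Ctsl was 0.144, 0.140 and 0.138 in Cd226-/- and 0.0928, 0.0833 and 0.0905 in WT libraries. The ratio of Ctsh to Ctsl was 3.14, 3.24 and 3.13 in Cd226-/- and 2.39, 1.87 and 2.38 in WT libraries. None of these ratios overlapped between the genotypes. Each pairs listed genes whose log2 fold changes had opposite signs, so nothing further is read from that separation. The ratio of Ctsk to Ctsl was nearly equal in all 3 Cd226-/- libraries although both genes were highest in replicate 1. The ratio of Cst3 to Cstb was 0.749, 0.821 and 0.810 in Cd226-/- and 0.764, 0.724 and 0.740 in WT libraries, with overlap.

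The promoter of Cst7, the gene with the largest difference, and that of Ctsd, the gene of the list that was lower and passed the threshold, are shown to set their sequence beside their values. Each runs 250 bases before to 50 after the RefSeq gene start on GRCm38.p6, and capitals mark motif matches. Cst7 lies on the plus strand at chr2:150570165-150570464 and Ctsd on the minus strand at chr7:142387778-142388077, both written 5′ to 3′ on the strand of the gene.
Cst7: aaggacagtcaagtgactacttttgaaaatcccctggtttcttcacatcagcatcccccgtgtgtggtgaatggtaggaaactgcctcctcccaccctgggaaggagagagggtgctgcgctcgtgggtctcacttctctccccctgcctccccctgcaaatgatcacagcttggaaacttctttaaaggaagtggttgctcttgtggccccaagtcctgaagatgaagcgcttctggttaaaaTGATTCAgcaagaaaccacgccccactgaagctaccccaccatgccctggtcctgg
Ctsd: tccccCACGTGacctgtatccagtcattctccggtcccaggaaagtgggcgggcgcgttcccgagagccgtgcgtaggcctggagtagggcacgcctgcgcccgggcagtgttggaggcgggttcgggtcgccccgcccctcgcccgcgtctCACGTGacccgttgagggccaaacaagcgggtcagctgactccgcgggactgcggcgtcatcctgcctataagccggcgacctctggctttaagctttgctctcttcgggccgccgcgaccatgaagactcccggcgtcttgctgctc

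The Cst7 promoter holds TGATTCA, beginning at -6 from the start. This matches TGANTCA, the loose pattern searched for AP-1, in which N is any base. With any central base, the pattern is in 7.81% of the 32851 RefSeq promoters of this length searched on both strands. The Ctsd promoter holds the E-box CACGTG at -245 and at -98, which 7.15% of promoters hold. Both lie within matches to its longer form TCACGTG, found in 3.77% of promoters and bound by the MiT/TFE factors that regulate lysosomal genes. Ctsd also had the highest GC content of the 7 genes with a RefSeq promoter, 67.3% with 33 CpG, against 53.3% with 5 CpG for Cst7 and a median of 52.7% over all promoters. Among the other members, Ctsl holds CACGTG at -236, and Ctsc holds the GAS motif TTCNNNGAA at -236 (8.30% of promoters) and the PU.1 motif GAGGAAGT at -151 (3.20%). None of the 7 holds the NF-kB motif GGGNTTTCC (1.68%) or TATAAA (13.6%) in this window. A match is a description of letters, not a binding site. Cstb, Ctsb and Ctsh had no promoter entry.

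Other cathepsins and legumain made a list of 16 genes, of which 6 were tested, 1 rose and 2 fell. Ctss, the elastolytic cathepsin that trims the invariant chain of MHC class II, rose slightly, at 5811 CPM in Cd226-/- and 5279 CPM in WT macrophages (log2 fold change 0.14 ± 0.052, SE; edgeR adjusted p = 0.0467). That call was lost in 8 of 14 alternatives, with adjusted p up to 0.161. Ctsf, a cysteine cathepsin of low level here, fell to 2.93 CPM in Cd226-/-, against 5.85 CPM in WT (log2 fold change -0.998 ± 0.19, SE; adjusted p = 3.00e-04). Ctso averaged 53.4 CPM in Cd226-/- and 62.0 CPM in WT and fell by 0.21 on the log2 scale (adjusted p = 0.0111). It did not pass with Cd226-/- represented by replicate 1 alone (adjusted p = 0.320). Legumain (Lgmn), which cleaves cathepsins into heavy and light chains, had a log2 fold change of 0.10 and did not pass (adjusted p = 0.192). Of 22 further genes of the cystatin superfamily, 20 matched a row of the count table by symbol. Of these only Stfa3, a stefin A gene, had enough counts, with 13.6 CPM in Cd226-/- and 16.6 CPM in WT (adjusted p = 0.0526).

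Genes that carry hydrolases to lysosomes gave 2 rises and 4 falls among 15 tested, with a median log2 fold change of -0.10. Sort1, the sorting receptor sortilin, fell to 34.9 CPM in Cd226-/-, against 67.1 CPM in WT macrophages (log2 fold change -0.94 ± 0.12, SE; edgeR adjusted p = 2.43e-04). Its relative Sorl1 rose to 57.1 CPM in Cd226-/-, against 35.1 CPM in WT (log2 fold change 0.70 ± 0.078, SE; adjusted p = 5.20e-07). Scarb2, the lysosomal membrane protein LIMP-2, and Igf2r, the larger mannose 6-phosphate receptor, also fell, by 0.34 and 0.28 on the log2 scale (adjusted p = 1.09e-05 and 6.47e-04).

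The vacuolar proton pump that acidifies lysosomes had 3 subunit genes higher and 2 lower among 16 tested, with a median log2 fold change of -0.0017. Atp6v0d2, a subunit of osteoclasts and macrophages, rose to 30.9 CPM in Cd226-/-, against 18.9 CPM in WT (log2 fold change 0.71 ± 0.096, SE; edgeR adjusted p = 6.64e-06). Atp6v1f and Atp6v0b rose by 0.26 and 0.19, and Atp6v0a1 fell by 0.27 on the log2 scale (adjusted p = 6.57e-04, 0.00882 and 0.00138). The Atp6v0b call was lost without WT replicate 1 (adjusted p = 0.0832). Among the 4 MiT/TFE factors, Tfec, which is largely restricted to macrophages, fell by 0.60 ± 0.10 on the log2 scale (adjusted p = 8.53e-05). Mitf rose by 0.19 ± 0.056 (adjusted p = 0.0150), a call lost in 4 of 14 alternatives. Tfeb and Tfe3 had adjusted p = 0.803 and 0.240.

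Of 4 tested serpins that bind cathepsins, 1 rose and 2 fell. Serpinb1a, an inhibitor of neutrophil serine proteases, fell to 49.7 CPM in Cd226-/-, against 81.1 CPM in WT (log2 fold change -0.71 ± 0.094, SE; edgeR adjusted p = 1.17e-04). Serpinb6a, an inhibitor of cathepsin G, fell by 0.35 on the log2 scale (adjusted p = 1.97e-05). Serpina3f rose by 0.50 (adjusted p = 0.00466), a call lost without Cd226-/- replicate 1 (adjusted p = 0.0669) and with that replicate alone (0.0875). Its relative Serpina3g, which inhibits cysteine cathepsins, had a log2 fold change of 0.54 ± 0.19 (SE) and missed the threshold (adjusted p = 0.106). Serpina3 and Serpinb6 genes lie among close relatives, so their own share of reads is uncertain. Of 5 tested granule serine proteases, the class cathepsin C activates, only the chymase gene Mcpt4 rose, at 5.81 CPM in Cd226-/- and 3.32 CPM in WT (log2 fold change 0.80 ± 0.20, SE; adjusted p = 0.00351). Summed mast cell and basophil markers were 7.77 to 9.47 CPM in Cd226-/- and 8.06 to 9.68 CPM in WT libraries, with Mcpt8 at 0. Of the 3 tested, Cpa3, a mast cell carboxypeptidase, was higher, at 5.51 CPM in Cd226-/- and 3.58 CPM in WT (adjusted p = 0.0144), and the transcription factor gene Gata2 was lower, at 2.15 CPM in Cd226-/- and 4.35 CPM in WT (adjusted p = 0.00177). The part of mast cells in the Mcpt4 difference was not tested. Over all these lists, 9 genes were higher, 11 were lower and 31 did not pass among 51 tested, with a median log2 fold change of -0.031. Of all 13215 genes tested, 30.9% passed, 16.1% higher and 14.8% lower, and calls within any of these lists stand beside that share. With Cd226-/- represented by replicate 1 alone, Ctso, Serpina3f, Mitf (adjusted p = 0.297), Atp6v1a (0.127) and Vps26a (0.103) no longer passed.

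**Figure D4:**
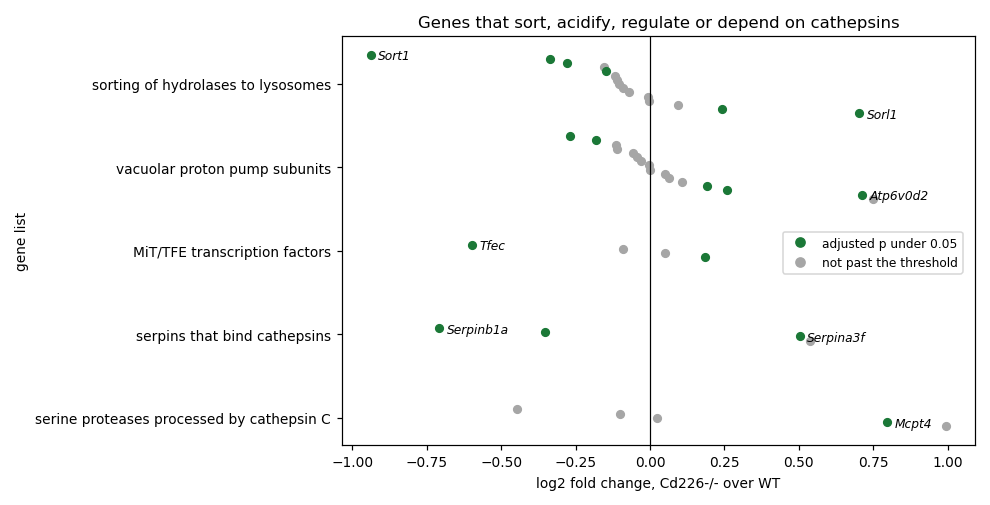
Log2 fold change of Cd226-/- over WT for the tested genes of 5 lists around the cathepsins, 1 point per gene, green where the edgeR adjusted p was under 0.05 and grey otherwise. Changes run both ways in the sorting, proton pump, MiT/TFE and serpin lists, with Sort1 at -0.94 and Sorl1 at 0.70 within the sorting list.

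The genes most like Cst7, Ctsk and Ctsh over the 6 libraries were found by the root mean square distance between profiles of log2 CPM centred on their mean, among the 9534 genes whose mean reached 5 CPM. Nearest to Cst7 was Ly6c2, a monocyte antigen, at a distance of 0.17. Ly6c2 had 205, 218 and 193 CPM in Cd226-/- libraries and 30.2, 29.5 and 30.9 CPM in WT libraries. G530011O06Rik (0.29) and Retnla (0.30) followed. Hdlbp (0.027), Atf3 (0.030) and Sec61a1 (0.039) were nearest to Ctsk, and Procr (0.031), Efemp2 (0.033) and Trim30c (0.036) to Ctsh. The distances share libraries and scaling and describe these 6 libraries only.

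The positions and neighbours of the genes bear on how reads could be counted, since the strand setting is not given in the sources used here. In GENCODE on GRCm38, Ctsd lies on the minus strand of chromosome 7 at 142375911 to 142388038 and shares 808 exon bases with Gm49369 on the same strand. Ctsb lies on the plus strand of chromosome 14 at 63122462 to 63145923 and shares 774 exon bases with Fdft1 on the opposite strand, which had 221, 181 and 199 counts in Cd226-/- and 154, 139 and 189 counts in WT libraries. Ctsl, on the minus strand of chromosome 13 at 64359337 to 64370890, overlaps the antisense gene Gm47123 and shares 395 exon bases with the pseudogene Gm49230 on its own strand. Unlike for Fdft1, no counts were available under the names Gm49369, Gm47123 and Gm49230. Their effect on the counts of Ctsd and Ctsl was not tested. Cst7, on the plus strand of chromosome 2 at 150570415 to 150578944, overlapped no other exon. Except for Ctsb with Fdft1 and Ctsd with Gm49369, no principal transcript of the 10 genes matched another gene at 95% identity over 100 bases.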

How the data were processed

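The deposited data are raw read counts by gene symbol in 1 table, with 1 column per library. HISAT2 was the aligner and GRCm38 the genome build, per the submitters' processing notes. For the counting tool, annotation and strand setting, the sources used here give nothing, so reads from genes that overlap on opposite strands cannot be told apart. Columns were assigned by name, and 0 of them went unused. Counts were filtered with filterByExpr, scaled by TMM and tested over 13215 genes with edgeR 4.0.16 in R 4.3.3 (robust quasi-likelihood F-test, two-sided, genotype as the only term), with Benjamini-Hochberg adjustment and a threshold of 0.05. The biological coefficient of variation was 6.75%. Each standard error was obtained by dividing the log2 fold change by the root of its F statistic. At these depths a count of 0 allows up to 3 counts, and such limits cover counting error only.

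The 10 genes and the lists of related genes and cell markers were chosen with earlier results of these data known. The text names all 10 genes, Cd226, up to 4 genes per list by absolute log2 fold change among those past the threshold, the 3 nearest profiles (pseudocount 0.5 in log2 CPM) for each of Cst7, Ctsk and Ctsh, and markers whose list is given. Lgmn, Stfa3, Tfeb, Tfe3 and Serpina3g, which did not pass the threshold, and Atp6v1a and Vps26a were named after their values were seen. Lengths and positions are from GENCODE M21 (GRCm38), using the APPRIS principal transcript, and promoters from RefSeq (GRCm38.p6). Near-identical transcripts were searched with BLAST 2.17.0. Alternatives were DESeq2 (1.42.0) size factors and its Wald test, unadjusted library sizes, dropping the filter, a mean of at least 5 CPM, limma-voom (3.58.1), the replicate number as a block, leaving out each library singly, Cd226-/- replicate 1 alone against WT, coding length and, added after seeing the data, the cystatin ratio without Ctsd.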

Additional observations from a re-analysis of the deposited data

How the results depend on the processing

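Of the 10 genes, 7 to 9 passed the threshold under the 14 alternatives, against 8 in the fit reported, and of all genes 2957 to 4537 passed, against 4086. Cst3, Cst7, Cstb, Ctsc, Ctsd, Ctsh and Ctsk kept their direction and their side of the threshold in all 14, which is no independent sign of stability, since they were selected on these libraries. The log2 fold change of Cst7 lay between 2.42 and 2.55, that of Ctsk between 0.41 and 0.71, and that of Ctsd between -0.30 and -0.18. Ctsl turned direction with Cd226-/- replicate 1 as the only Cd226-/- library (log2 fold change 0.0029), a fit whose spread comes from the WT libraries and which assumes that the lone library varies like them. In that same single-replicate fit Ctsb passed the threshold (0.24). Ctsz was lost without WT replicate 1 or WT replicate 3, each of which leaves 2 libraries in that genotype. With coding length in place of transcript length, 6 of the 10 genes kept their rank among Cd226-/- levels, where all 10 are ranked by transcript length. With Ctsd left out of the cystatin to cathepsin ratio, 2 of the 3 Cd226-/- libraries were above every WT library, against 3 with it. With the replicate number as a block, 4137 genes and 8 of the 10 passed. Deviations of same-numbered libraries correlated at 0.012, -0.013 and 0.012, and Cd226-/- replicates 1, 2 and 3 deviated most like WT replicates 1, 3 and 3. So few libraries cannot tell whether those of the same number were prepared together, which the labels do not state. With 3 libraries per genotype of unstated independence, changes as small as those of Ctsb, Ctsl and Ctsz depend on single libraries, and Ctsf rests on few counts. The causes were not tested.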

Other observations

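The 10 genes together held 2.56, 2.40 and 2.41% of all counts in Cd226-/- libraries and 2.57, 2.56 and 2.51% in WT libraries. Ctsb and Ctsd together held 1.83, 1.69 and 1.72% in Cd226-/- and 1.93, 1.95 and 1.87% in WT libraries, a sum lower in every Cd226-/- library. Only Ctsd had the lower share in Cd226-/-, at 0.880% of counts against 1.08% in WT. Ctsb held 0.867% in Cd226-/- and 0.832% in WT. By mean CPM over the 6 libraries, Ctsd ranked 6 and Ctsb 7 among the genes tested, Ctsz ranked 40 and Ctsh 52, while Ctsk ranked 2905 and Cst7 4738.

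Acp5, the tartrate-resistant acid phosphatase that is often read with Ctsk in osteoclasts, had 207, 174 and 176 CPM in Cd226-/- and 125, 157 and 118 CPM in WT libraries, with Cd226-/- replicate 1 again the highest. Tnfrsf11a, the receptor for the osteoclast factor RANKL, had 22.6, 22.1 and 21.73 CPM in Cd226-/- and 29.0, 30.6 and 27.9 CPM in WT libraries and fell by 0.40 on the log2 scale (edgeR adjusted p = 7.78e-04).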
